A study of Mus musculus with 71 samples.

Results

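The 9 genes described here were chosen by name from Notch signalling and secretory fate decisions in the intestinal epithelium: Notch1, Dll1, Dll4, Jag1, Hes1, Atoh1, Gfi1, Spdef, and Neurog3. They are 9 of the 24475 gene identifiers in the 3 bulk RNA-sequencing tables, and all 9 were found there. The tables hold 65 libraries from C57BL/6 mice that were either WT or Btnl2-KO. The Btnl2-KO allele is a LacZ knock-in that removes Btnl2, a butyrophilin-like membrane protein, from every cell of the mouse, and controls were WT littermates housed in the same cages. Whole tissue gave 7 WT and 7 Btnl2-KO libraries of small intestine and 6 WT and 7 Btnl2-KO libraries of colon, from mice labelled young without an age in weeks. Intestinal epithelial cells (IECs), taken as the upper layer of a Percoll gradient, came from mice of 7 weeks, with 3 WT and 2 Btnl2-KO libraries of duodenum, 3 and 3 of jejunum, and 2 and 3 of ileum. γδ intraepithelial lymphocytes (γδ IELs), sorted as CD45+ TCRβ- TCRγδ+ cells, came from mice labelled as 10 weeks old, with the paper giving a slightly higher age, and each library pooled a pair of mice. There were 4 WT and 3 Btnl2-KO γδ IEL libraries of duodenum, 4 and 4 of jejunum, and 4 and 3 of ileum.

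Notch signalling passes between touching cells: binding of a Delta or Jagged ligand on a neighbouring cell leads to cleavage of the receptor, and the freed intracellular part joins RBPJ in the nucleus to switch on repressors such as Hes1. In the intestinal crypt, cells with active Notch hold Atoh1 down and become absorptive, while cells that escape it express Atoh1 and become secretory cells such as goblet, Paneth, and enteroendocrine cells. Atoh1-positive cells then express Delta ligands and keep their neighbours in the absorptive path.

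Levels are given as CPM, the read count of a gene as a share of its library scaled by TMM over all libraries of 1 table, so that levels of different tables stand side by side without a test. A gene is called changed where edgeR's quasi-likelihood test gave a Benjamini-Hochberg FDR below 0.05 over all genes tested and the fold change was above 1.5. In bulk samples, fewer cells of a type and less RNA per cell cannot be told apart. Total counts were 13619309 to 21708721 per tissue library, 15397757 to 38258472 per IEC library, and 13444958 to 30029485 per γδ IEL library. Btnl2 itself was at 23.9 to 103 CPM in WT and 0.67 to 2.44 CPM in Btnl2-KO small intestine. In IECs it was at 25.1 to 67.7 CPM in WT and at 0.34 to 0.59 CPM in Btnl2-KO libraries, other than the library labelled jejunal Btnl2-KO replicate 2 with 19.5 CPM and the library labelled duodenal Btnl2-KO replicate 1 with 5.45 CPM. In 3 IEC libraries the ileal bile acid-binding protein gene Fabp6 and the proximal transcription factor gene Gata4 went against the labelled segment. The libraries labelled duodenal Btnl2-KO replicate 1 and jejunal Btnl2-KO replicate 2 had 220 and 484 CPM of Fabp6. The one labelled ileal Btnl2-KO replicate 1 had 0.23 CPM of Fabp6 and 153 CPM of Gata4. All 3 are labelled Btnl2-KO, and the segment comparisons of IECs below rest on libraries labelled WT.

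Per kilobase of exon, the members differed widely in level, and the order depended on the fraction. In WT ileal IECs, Hes1 led with 25.9 CPM per kb, followed by Atoh1 with 13.7 and Spdef with 8.17 CPM per kb. Dll1, Dll4, Notch1, Jag1, Gfi1, and Neurog3 followed there with 4.73, 3.84, 3.41, 1.83, 1.55, and 0.89 CPM per kb. In WT ileal γδ IELs the order was another, with Gfi1 first at 29.8 CPM per kb. Below it stood Atoh1 with 7.10, Spdef with 6.09, Hes1 with 4.49, and Notch1 with 4.09 CPM per kb. Relative to 1000 CPM of 12 pan-epithelial genes, Atoh1 and Spdef had means of 2.09 and 2.05 CPM in these libraries. In WT ileal IECs these means were 2.21 and 1.44 CPM. The part of epithelial RNA in the levels of the sorted cells was not tested. In WT colon, Atoh1 with 34.6, Hes1 with 26.3, and Spdef with 22.5 CPM per kb stood above all other members, which were at most 4.90 CPM per kb.

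Notch1, the receptor of the list, lies on the minus strand of chromosome 2 (GRCm38, 26457902 to 26503822) and had the flattest profile of the 9 genes. Its group means ran from 44.2 to 57.8 CPM in tissue, from 42.5 to 54.2 CPM in IECs, and from 55.0 to 79.2 CPM in γδ IELs. The highest group was ileal Btnl2-KO γδ IELs, with 66.2, 87.0, and 84.3 CPM, and the lowest was WT duodenal IECs, with 50.03, 25.5, and 52.0 CPM. Most neighbouring group means in this order differed by less than the larger of their SDs.

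The ligands Dll1, Dll4, and Jag1 were expressed in tissue and IECs and were low in γδ IELs. Dll1, a Delta ligand of secretory precursors (chromosome 17, minus strand, 15367354 to 15376932), had group means of 17.6 to 29.1 CPM in tissue, 19.95 to 26.4 CPM in IECs, and 4.11 to 6.77 CPM in γδ IELs. Dll4, a Delta ligand that endothelial cells also express (chromosome 2, plus strand, 119325784 to 119335666), had means of 15.2 to 22.03, 10.5 to 15.2, and 1.05 to 2.32 CPM, respectively. Jag1, a Jagged ligand (chromosome 2, minus strand, 137081451 to 137116520), had means of 19.3 to 28.6, 10.7 to 16.3, and 0.60 to 1.98 CPM. Summed over 9 endothelial marker genes, tissue libraries had 132 to 231 CPM, while IEC libraries had 2.21 to 7.92 CPM and γδ IEL libraries 5.57 to 19.6 CPM. The part of endothelial cells in the Dll4 levels was not tested.

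Hes1, the repressor that Notch switches on (chromosome 16, plus strand, 30065357 to 30067796), was an epithelial and tissue transcript in these libraries, with means of 39.7 to 63.1 CPM in IECs, 30.2 to 74.9 CPM in tissue, and 3.50 to 9.44 CPM in γδ IELs. For the secretory genes Atoh1 and Spdef, all 4 tissue group means on the CPM scale lay above those of IECs and γδ IELs, whose means overlapped. Atoh1, the master factor of secretory fate (chromosome 6, plus strand, 64729125 to 64731245), had means of 39.1 to 73.4 CPM in tissue, 11.4 to 29.0 CPM in IECs, and 2.59 to 15.0 CPM in γδ IELs. Spdef, a factor for goblet and Paneth cell maturation (chromosome 17, minus strand, 27714446 to 27731003), had means of 37.6 to 51.9, 7.09 to 18.8, and 3.44 to 14.0 CPM, respectively. Neurog3, the factor that starts enteroendocrine fate (chromosome 10, plus strand, 62133090 to 62134763), was the rarest, with means of 0.76 to 1.01 CPM in tissue, 1.49 to 4.30 CPM in IECs, and 0.26 to 0.96 CPM in γδ IELs. Unlike the other secretory genes, its group means were higher in IECs than in whole tissue, which was not tested across tables.

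Gfi1 took a path of its own. It encodes a repressor that acts below Atoh1 in goblet and Paneth precursors and also acts in developing and mature T cells (chromosome 5, minus strand, 107716655 to 107725805). It was at 2.10 to 7.83 CPM in single IEC libraries, 4.57 to 22.4 CPM in tissue libraries, and 70.4 to 135 CPM in γδ IEL libraries, so that the lowest γδ IEL library stood above the highest IEC and tissue library. Relative to 1000 CPM of 12 pan-epithelial genes, Gfi1 was at 0.15 to 0.66 CPM in IECs and at 7.97 to 224 CPM in γδ IELs.

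The promoters of the 4 secretory factors are shown because, in the WT IECs described next, Atoh1 and Spdef were called higher and Neurog3 lower in the ileum than in the duodenum, with Gfi1 higher but not called. Each is the 300 bases from 250 before to 50 after a RefSeq transcript start (GRCm38.p6), 5′ to 3′ on the gene's strand: chr6:64728875-64729174 (plus strand) for Atoh1, chr5:107725756-107726055 (minus) for Gfi1, chr17:27728902-27729201 (minus) for Spdef, and chr10:62132840-62133139 (plus) for Neurog3. Capitals mark every match to 3 motifs searched on both strands: the RBPJ core GTGGGAA, the E-box CANNTG that basic helix-loop-helix activators such as Atoh1 and Neurog3 read, and the N-box CACNAG that Hes repressors read. Of all 32851 mouse promoters of this length in the table, 6.38% held the RBPJ core, 72.3% an E-box, and 42.5% an N-box.
Atoh1: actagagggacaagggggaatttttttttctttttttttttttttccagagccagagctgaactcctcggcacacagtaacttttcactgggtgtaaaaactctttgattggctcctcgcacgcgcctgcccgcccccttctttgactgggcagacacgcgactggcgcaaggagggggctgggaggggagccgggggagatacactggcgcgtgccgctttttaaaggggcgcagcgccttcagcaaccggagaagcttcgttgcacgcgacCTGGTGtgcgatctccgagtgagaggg
Gfi1: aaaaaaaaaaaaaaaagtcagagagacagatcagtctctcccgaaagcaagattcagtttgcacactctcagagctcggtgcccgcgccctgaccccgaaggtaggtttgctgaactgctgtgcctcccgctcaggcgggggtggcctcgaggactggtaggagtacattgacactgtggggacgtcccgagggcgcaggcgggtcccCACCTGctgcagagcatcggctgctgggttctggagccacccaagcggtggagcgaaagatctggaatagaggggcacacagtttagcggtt
Spdef: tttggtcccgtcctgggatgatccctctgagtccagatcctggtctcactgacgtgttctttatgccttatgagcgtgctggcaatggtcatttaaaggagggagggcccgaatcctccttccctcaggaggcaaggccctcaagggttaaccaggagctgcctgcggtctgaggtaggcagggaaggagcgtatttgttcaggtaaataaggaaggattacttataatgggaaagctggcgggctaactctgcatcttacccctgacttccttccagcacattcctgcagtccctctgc
Neurog3: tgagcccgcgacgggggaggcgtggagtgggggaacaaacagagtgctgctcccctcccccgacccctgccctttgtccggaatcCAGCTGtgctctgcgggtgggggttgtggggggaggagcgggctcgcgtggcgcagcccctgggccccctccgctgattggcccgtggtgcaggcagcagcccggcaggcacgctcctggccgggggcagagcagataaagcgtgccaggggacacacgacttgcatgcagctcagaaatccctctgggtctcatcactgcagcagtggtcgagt
Atoh1 held 1 N-box match and no E-box, Gfi1 and Neurog3 held 1 E-box match each and no N-box, and Spdef held no match. No RBPJ core lay in these 4 windows. The letters alone are a description and do not show a bound site. The table held a promoter for 8 of the 9 members and was not complete for Hes1.

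Colon was compared with small intestine in whole tissue to see how the 9 genes differ between the 2 organs, first in WT mice. Atoh1 was higher in WT colon and was the 1 member called, while Hes1 and Jag1 were higher by less than the 1.5-fold minimum. Atoh1 ran from 24.8 to 48.5 CPM in WT small intestine (median 40.1, n = 7) and from 62.5 to 89.7 CPM in WT colon (median 70.0, n = 6). The groups did not overlap, and the log2 fold change was 0.89 ± 0.14 (SE; edgeR FDR 0.00013). Among all 15162 genes tested, 12.0% were called higher and 15.6% lower in WT colon, so 1 of 9 higher and 0 of 9 lower lies at or under that background. At an unadjusted p below 0.05 stood 5 of the 9 members and 53.2% of all genes.

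Hes1 ran from 31.4 to 46.8 CPM in WT small intestine (median 34.8) and from 44.6 to 65.1 CPM in WT colon (median 53.4). The ranges overlapped at their edge, and the log2 fold change was 0.52 ± 0.12 (SE; edgeR FDR 0.0026), a 1.43-fold difference under the minimum for a call. Jag1 had a log2 fold change of 0.45 ± 0.11 (SE; edgeR FDR 0.0049), also under the minimum. Dll1 at -0.55 and Gfi1 at 0.39 had edgeR FDRs of 0.051 and 0.052. Notch1 at 0.11, Dll4 at -0.22, Spdef at 0.44, and Neurog3 at -0.38 missed the FDR threshold. Spdef had the widest spread, from 20.3 to 78.2 CPM in WT small intestine and from 30.3 to 97.9 CPM in WT colon.

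The same comparison in Btnl2-KO mice called Hes1 and Atoh1 higher and Dll1 lower in colon. There, 14.4% of all genes were called higher and 15.7% lower, and 2 and 1 of the 9 members were. At an unadjusted p below 0.05 stood 6 of the 9 members and 56.7% of all genes. Hes1 ran from 27.1 to 36.8 CPM in Btnl2-KO small intestine (median 29.0, n = 7) and from 49.2 to 165 CPM in Btnl2-KO colon (median 61.3, n = 7). No library overlapped, and the log2 fold change was 1.31 ± 0.24 (SE; edgeR FDR 0.00023). The highest value belongs to Btnl2-KO colon replicate 2, and without that library the log2 fold change was 0.97. Atoh1 was 0.85 ± 0.19 higher on the log2 scale (SE; edgeR FDR 0.0016), with ranges of 25.4 to 64.0 and 43.8 to 98.5 CPM that overlapped. Dll1 was lower in colon with a log2 fold change of -0.73 ± 0.19 (SE; edgeR FDR 0.0047), and its ranges were 17.1 to 43.5 CPM in small intestine and 13.8 to 22.2 CPM in colon. Dll4 at -0.54, Jag1 at 0.41, and Notch1 at 0.38 passed the FDR threshold in edgeR (FDR 0.002, 0.0017, and 0.0084) but not the 1.5-fold minimum. Among small intestine libraries, WT replicate 5 and Btnl2-KO replicate 1 had 82.7 and 95.6 CPM of Gata4, beside 0.17 to 15.1 CPM in the others. Without them, Atoh1 was 0.80 higher in WT and 0.76 higher in Btnl2-KO colon on the log2 scale and stayed called. The WT and the Btnl2-KO comparison use different libraries, and a test of the difference between them follows with the genotype.

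**Figure D1:**
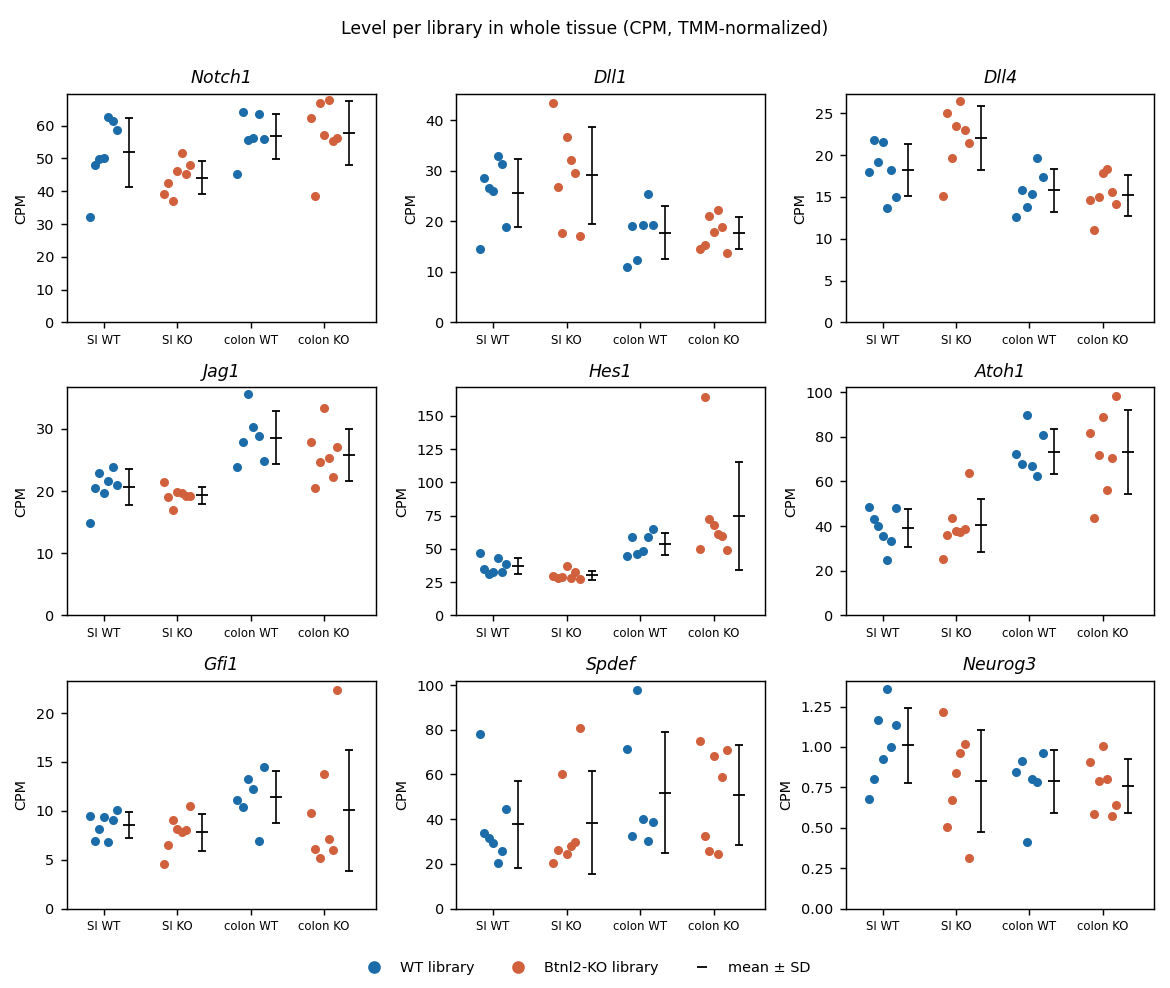
CPM of the 9 genes in whole tissue, 1 panel per gene, with a point for each library of WT and Btnl2-KO small intestine and colon, and beside them a dash at the group mean with error bars of 1 SD. Atoh1 stands higher in colon than in small intestine in both genotypes, and 1 Btnl2-KO colon library carries 165 CPM of Hes1.

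Among the cells that the secretory genes make, the lists of markers moved unevenly in WT colon against small intestine, where 12.0% of all genes were called higher and 15.6% lower. Of 9 goblet cell genes tested, 3 rose and 1 fell, with a median log2 fold change of 0.68 beside -0.02 over all genes. Creb3l1, a transcription factor of the secretory pathway, rose by 2.05, the mucin gene Muc2 by 1.04, and Foxa3 by 0.68, while Spink4 fell by 1.89. Of 11 enteroendocrine genes tested, 6 rose and 1 fell, with Tph1, the enzyme of serotonin synthesis, up by 1.92 and the hormone gene Cck down by 1.75. Of 9 Paneth cell genes, 2 rose and 7 fell, and all 9 absorptive enterocyte genes tested fell. Of 7 Notch targets other than Hes1, 4 fell and none rose: Olfm4, a crypt base gene, was at 430 CPM in small intestine and 0.067 CPM in colon, Hes2 fell by 1.42 on the log2 scale, and the feedback inhibitor gene Nrarp fell by 0.70. In Btnl2-KO mice 1 of these 7 targets rose and 2 fell, beside 14.4% of all genes called higher and 15.7% lower. Of 21 genes of Notch processing and modification, 1 rose and 3 fell in WT colon, shares no larger than those of all genes.

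Ileal, jejunal, and duodenal IECs of WT mice were compared to follow the members along the small intestine. Atoh1 and Spdef were higher and Neurog3 was lower in the ileum than in the duodenum. Against this comparison's background of 4.21% of 13046 genes called higher and 2.38% lower, 2 of 9 members were called higher and 1 of 9 lower. Atoh1 had 12.6, 12.3, and 9.24 CPM in the 3 duodenal, 21.1, 18.0, and 21.8 CPM in the 3 jejunal, and 29.3 and 28.7 CPM in the 2 ileal libraries. No library of 1 segment overlapped another segment, and the ileum stood 1.38 ± 0.19 above the duodenum on the log2 scale (SE; edgeR FDR 0.0037). Spdef had 6.30, 7.01, and 7.95 CPM in duodenal, 13.2, 11.7, and 13.7 CPM in jejunal, and 17.6 and 20.1 CPM in ileal IECs. It rose in the same order of segments, again without overlap, with a log2 fold change of 1.43 ± 0.19 from duodenum to ileum (SE; edgeR FDR 0.0027).

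Neurog3 ran the other way. It had 3.42, 5.48, and 3.99 CPM in duodenal, 4.16, 3.16, and 2.86 CPM in jejunal, and 1.02 and 1.97 CPM in ileal IECs. Duodenum and jejunum overlapped, and both ileal libraries lay below all others, with a log2 fold change of -1.49 ± 0.36 between ileum and duodenum (SE; edgeR FDR 0.041). This call was lost in each of the 5 fits that left out 1 duodenal or ileal library. Gfi1 had 2.53, 2.10, and 3.12 CPM in duodenal, 5.27, 3.70, and 4.40 CPM in jejunal, and 4.52 and 5.35 CPM in ileal IECs. The duodenal libraries lay below all others, but the log2 fold change of 0.95 ± 0.27 from duodenum to ileum missed the threshold in edgeR (SE; FDR 0.074) and passed it in DESeq2 (FDR 0.026).

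Receptor, ligands, and Hes1 were not called between segments. From duodenum to ileum the log2 fold changes were 0.21 for Notch1, -0.04 for Dll1, 0.19 for Dll4, -0.10 for Jag1, and 0.05 for Hes1, with standard errors of 0.22 to 0.46. Hes1 had 48.6, 63.5, and 43.5 CPM in duodenal, 35.8, 40.6, and 49.4 CPM in jejunal, and 49.6 and 55.8 CPM in ileal IECs, which overlapped between the duodenum and each other segment. Between jejunum and duodenum, edgeR called 0 of 9 members, beside 0.452% of all genes higher and 0.314% lower, with 3 members and 14.5% of all genes at an unadjusted p below 0.05. These were Atoh1, Spdef, and Gfi1, with log2 fold changes of 0.86, 0.88, and 0.80 and edgeR FDRs of 0.073, 0.063, and 0.22; DESeq2 called Atoh1 and Spdef. Between ileum and jejunum, edgeR and DESeq2 each called 0 of 9 members. By edgeR, 0.437% of all genes were called higher and 0.207% lower there. An unadjusted p below 0.05 was found for 3 members in each tool, and for 6.41% of all genes in edgeR.

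**Figure D2:**
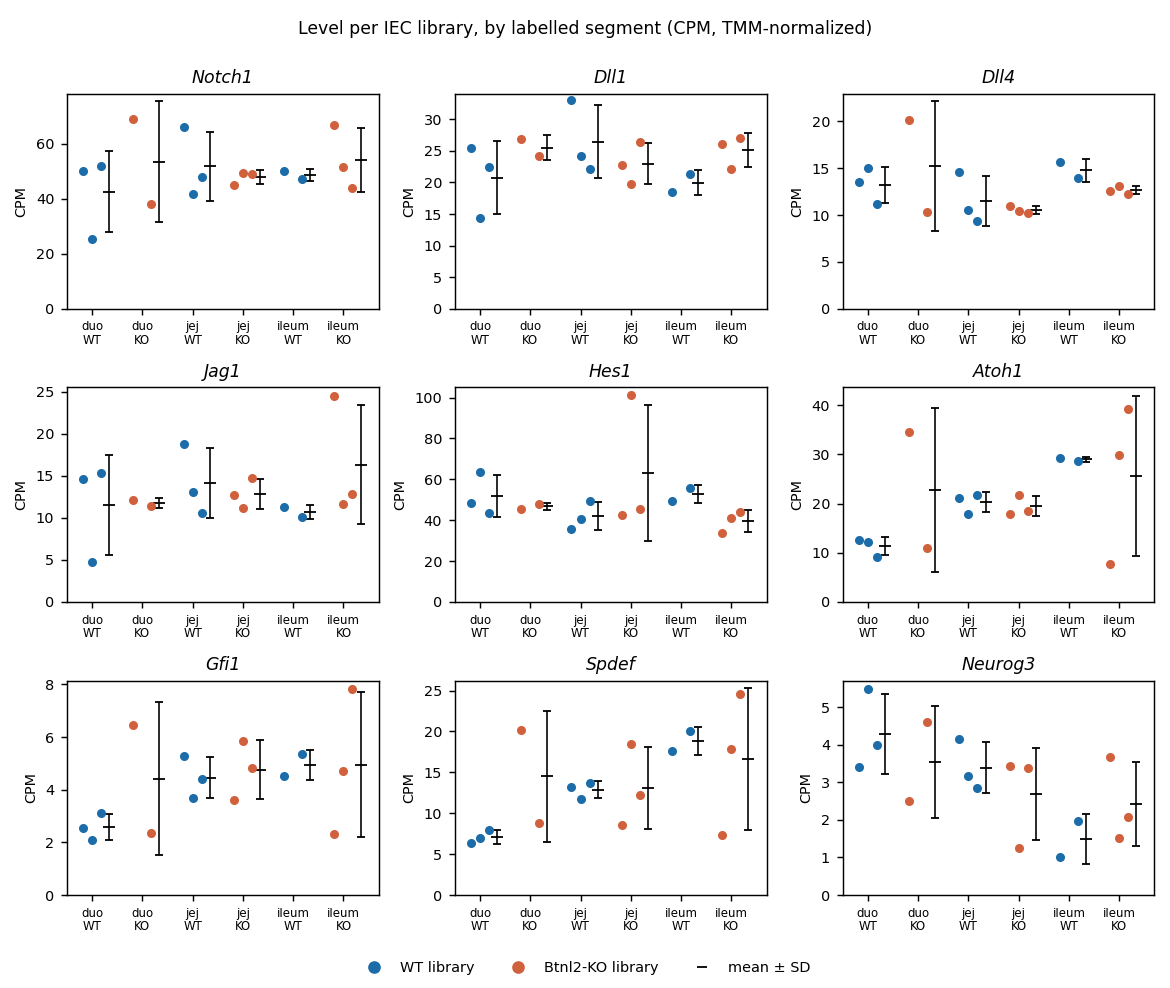
CPM of the 9 genes in IECs, 1 panel per gene, with a point for each WT and Btnl2-KO library of duodenum, jejunum, and ileum, and beside them a dash at the group mean with error bars of 1 SD. WT Atoh1 and Spdef climb from duodenum to ileum while WT Neurog3 is lowest in the ileum. The wide spread of the duodenal and ileal Btnl2-KO groups for Atoh1 comes from the libraries labelled duodenal and ileal Btnl2-KO replicate 1, with 34.6 and 7.67 CPM.

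Relative to 1000 CPM of the 12 pan-epithelial genes, the order of segments was the same for the group means. Atoh1 had means of 0.95, 1.79, and 2.21 CPM and Spdef of 0.60, 1.13, and 1.44 CPM in WT duodenal, jejunal, and ileal IECs. The summed pan-epithelial level itself was 10223 to 14314 CPM in the duodenal and 12606 to 13622 CPM in the ileal libraries. Of 9 goblet cell genes tested between ileum and duodenum, 5 rose and none fell, beside 4.21% and 2.38% of all genes, with a median log2 fold change of 1.02 beside 0.0054 over all genes. Muc2 rose by 2.34, the secreted goblet cell protein gene Clca1 by 1.83, and Creb3l1 by 1.80. Of 13 enteroendocrine genes, 1 rose and 2 fell: Gcg, the glucagon gene of L cells, was at 51.5 CPM in the ileum and 23.8 in the duodenum, while Tph1 went from 9.54 to 4.25 CPM and Pax4 from 0.59 to 0.11 CPM. None of 9 Paneth cell genes was called. The receptor gene Notch4 rose by 1.68 from a level of 1.49 CPM. Of 5 Notch targets, 8 genes of the transcription complex, and 20 of processing and modification, none was called.

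In WT γδ IELs Atoh1 and Spdef had their highest group means in the ileum, and neither was called between jejunum and duodenum. Atoh1 had 1.62, 3.93, 2.87, and 1.96 CPM in WT duodenal, 2.15, 9.01, 1.21, and 5.44 CPM in WT jejunal, and 3.75, 17.9, 18.5, and 19.995 CPM in WT ileal γδ IELs. Of the ileal libraries, 3 lay above all others and replicate 1 lay within the range of the other segments. Against the duodenum the log2 fold change was 2.53 ± 0.60 (SE; edgeR FDR 0.046), and the call was lost in 7 of the 8 fits that left out 1 library. Against the jejunum it was 1.77 ± 0.58 (SE; edgeR FDR 0.032). Each of these calls was lost in 8 of 14 alternatives, and against the jejunum the log2 fold change ranged from 0.59 to 2.37 over them, with an FDR of up to 0.24. In the comparison of ileum with duodenum 1 of 9 members was called higher, beside 1.08% of 12899 genes higher and 1.03% lower, and in that of ileum with jejunum 2 of 9, beside 11.4% higher and 10.5% lower.

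Spdef had 5.19, 4.78, 2.77, and 1.02 CPM in WT duodenal, 3.07, 6.44, 0.65, and 3.96 CPM in WT jejunal, and 6.496, 19.1, 13.2, and 17.3 CPM in WT ileal γδ IELs. The ileal libraries lay above all the others by a small margin, with a log2 fold change of 2.00 ± 0.57 against the jejunum (SE; edgeR FDR 0.017), a call lost in 3 of 14 alternatives. Against the duodenum it was 2.03 ± 0.57 (SE; edgeR FDR 0.099), which was not called, while DESeq2 gave an FDR of 0.0059. Gfi1, the member these cells express most, had 70.4 to 108 CPM in WT duodenal, 108 to 135 CPM in WT jejunal, and 72.0 to 127 CPM in WT ileal libraries. It was 0.49 ± 0.18 higher on the log2 scale in jejunum than in duodenum (SE; edgeR FDR 0.045), under the 1.5-fold minimum, so 0 of 9 members were called in a comparison in which 10.4% of genes were called higher and 12.1% lower. No other member had an unadjusted p below 0.05 there, while 44.5% of all genes had, and DESeq2 also called 0. In Btnl2-KO γδ IELs, ileum against duodenum called 0 of 9 members in edgeR and DESeq2, beside 0.0% of genes higher and 0.00775% lower. An unadjusted p below 0.05 was found there for 1 member, Gfi1, and for 6.76% of all genes by edgeR, and for 2 members by DESeq2.

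The summed level of pan-epithelial genes varied widely between these sorted libraries. Its correlation with Atoh1 or Spdef was not computed, and the part of epithelial RNA in their levels was not tested. All 12 pan-epithelial genes had counts in γδ IEL libraries, and their sum ranged from 605 to 9033 CPM, beside 8422 to 14314 CPM in IECs. It was 3311 to 5303 CPM in WT duodenal, 2044 to 5649 CPM in WT jejunal, and 3461 to 9033 CPM in WT ileal libraries, with the lowest ileal sum in replicate 1, where Atoh1 was also lowest. The sum of 12 genes of γδ IELs and T cells was 35796 to 93588 CPM, beside 25.2 to 417 CPM in IECs. Per 1000 CPM of pan-epithelial genes, Atoh1 had means of 0.62, 1.13, and 2.09 CPM in WT duodenal, jejunal, and ileal γδ IELs, beside 0.95, 1.79, and 2.21 CPM in IECs. Spdef had 0.76, 0.95, and 2.05 CPM there. With the pan-epithelial level as a covariate, the ileum against jejunum log2 fold changes were 0.59 for Atoh1 and 1.02 for Spdef. Neither was called (edgeR FDR 0.24 and 0.078). Between ileum and duodenum, Atoh1 stayed called with this covariate, and Spdef was called as well, at 1.34 (edgeR FDR 0.039).

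**Figure D3:**
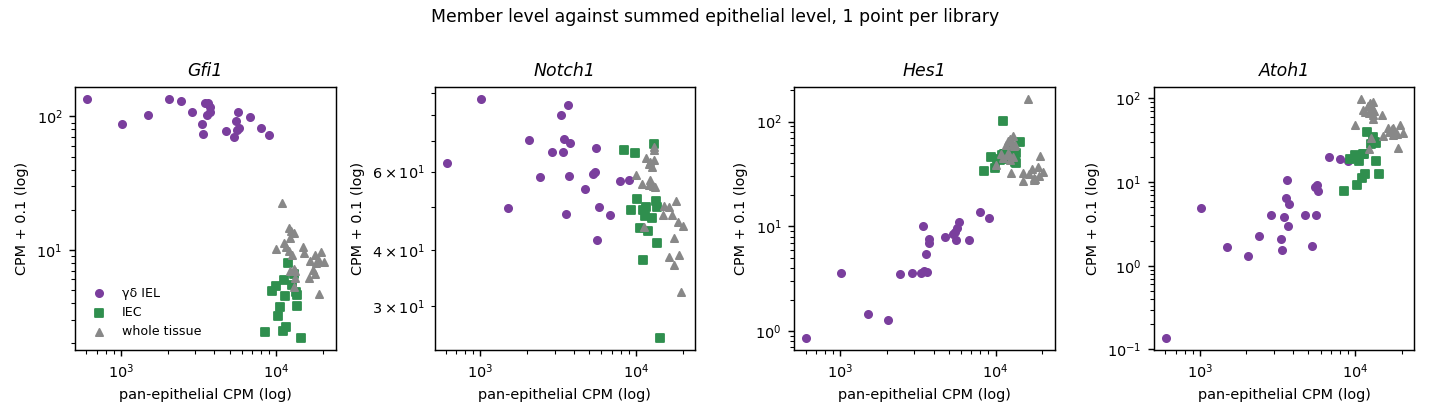
CPM plus 0.1 of Gfi1, Notch1, Hes1, and Atoh1 against the summed CPM of 12 pan-epithelial genes, both on log axes, with a point for each γδ IEL, IEC, and tissue library. Among γδ IEL libraries Hes1 and Atoh1 climb with the pan-epithelial sum, which spans 605 to 9033 CPM, whereas Gfi1 is at 70.4 CPM or more in every γδ IEL library.

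Other genes of the pathway were read in γδ IELs from the same lists. Of 21 genes of Notch processing and modification, 8 rose and 1 fell from duodenum to jejunum, beside 10.4% of all genes called higher and 12.1% lower. From jejunum to ileum 9 fell and none rose, beside 11.4% higher and 10.5% lower, and between ileum and duodenum none of the 21 was called. From duodenum to jejunum Furin, a protease that cuts the receptor on its way to the membrane, rose by 1.14 on the log2 scale, the γ-secretase gene Ncstn by 1.13, and the ubiquitin ligase gene Itch by 1.11, while Psenen, another γ-secretase subunit, fell by 0.68. Heyl, a Notch target, stood at 62.7 CPM in WT ileal and 88.7 CPM in WT duodenal γδ IELs, beside 1.24 and 0.94 CPM in IECs, and fell by 1.05 on the log2 scale from the jejunum, with 132 CPM, to the ileum. Of 9 goblet cell and 9 Paneth cell genes, 8 and 7 rose from jejunum to ileum. Their medians were 1.97 and 2.69 on the log2 scale, beside 0.01 over all genes. Of 10 absorptive enterocyte genes, 5 fell and none rose from jejunum to ileum, with a median of -1.27. From duodenum to ileum, 3 goblet and 2 Paneth cell genes rose and 6 absorptive genes fell, beside 1.08% of all genes higher and 1.03% lower.

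**Figure D4:**
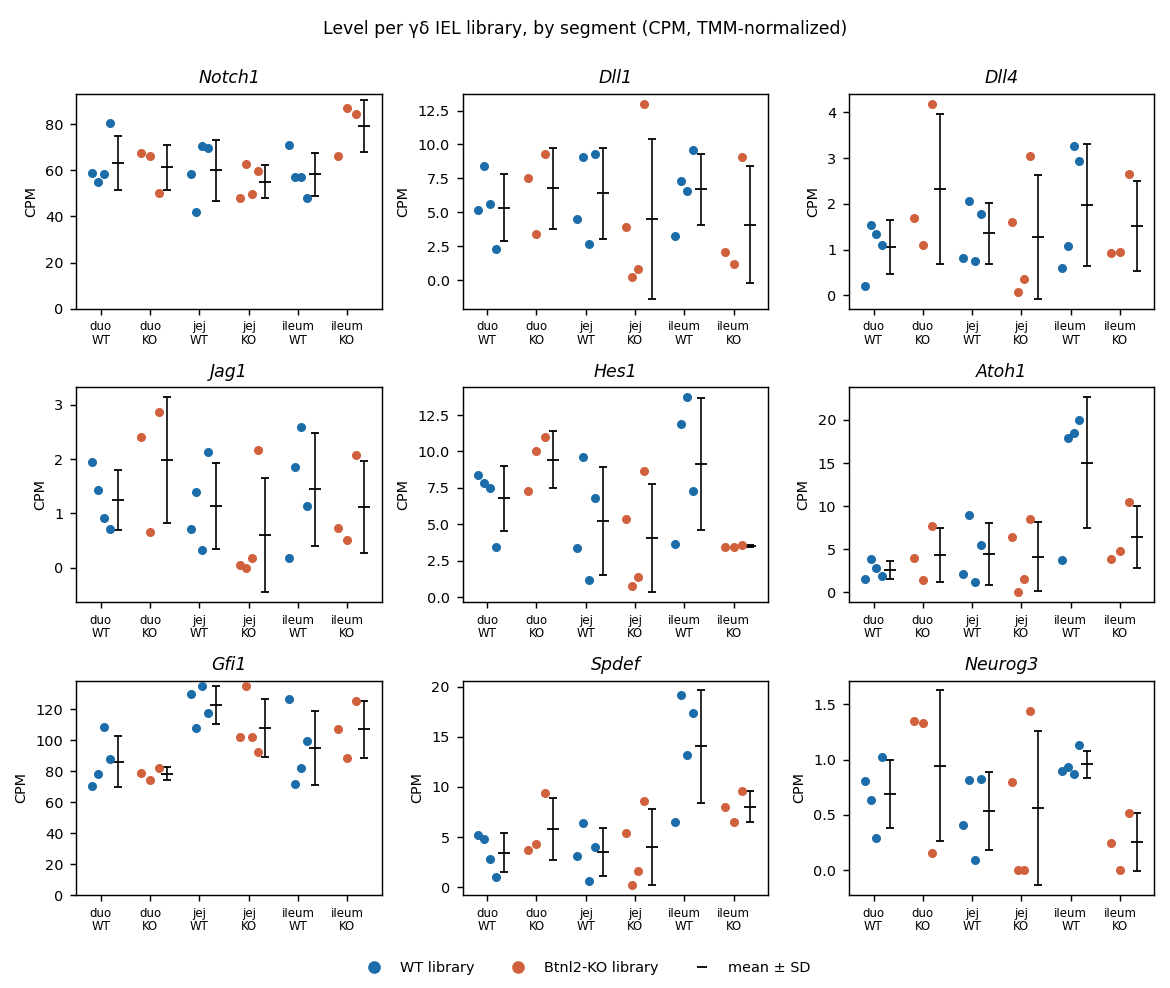
CPM of the 9 genes in γδ IELs, 1 panel per gene, with a point for each WT and Btnl2-KO library of duodenum, jejunum, and ileum, and beside them a dash at the group mean with error bars of 1 SD. WT Atoh1 is at 17.9 to 19.995 CPM in 3 of 4 ileal libraries, and Gfi1 is at 70.4 to 135 CPM throughout.

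Btnl2-KO was compared with WT within each organ, segment, and fraction, to see whether loss of Btnl2 moved any member. In the 8 comparisons of genotype, edgeR called 0 of 9 members each time, and DESeq2 also called 0. Among the 72 single tests by edgeR, 5 had an unadjusted p below 0.05. These were Hes1 in small intestine, in ileal IECs, and in ileal γδ IELs, Spdef in duodenal IECs, and Notch1 in ileal γδ IELs. By DESeq2, 2 members had such a p in small intestine, 2 in duodenal IECs, 1 in ileal IECs, and 4 in ileal γδ IELs. Few genes of any kind were called by genotype. In small intestine 0.0135% of genes were called higher and 0.00673% lower, in colon 0.0134% each way, in duodenal and jejunal IECs 0.0%, in ileal IECs 0.0% and 0.00774%, and in duodenal, jejunal, and ileal γδ IELs 0.0% higher and 0.00789%, 0.00794%, and 0.0% lower. The share of all genes at an unadjusted p below 0.05 by edgeR was 23.0% in small intestine and 4.14% in colon. It was 1.22%, 8.4%, and 2.07% in duodenal, jejunal, and ileal IECs and 2.07%, 6.39%, and 8.79% in duodenal, jejunal, and ileal γδ IELs.

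In small intestine, Hes1 was at 27.1 to 36.8 CPM in Btnl2-KO (median 29.0) and 31.4 to 46.8 CPM in WT (median 34.8). The ranges overlapped, and the log2 fold change was -0.30 ± 0.10 (SE; edgeR FDR 0.13). In colon, Hes1 was 0.48 ± 0.25 higher in Btnl2-KO (SE; edgeR FDR 0.97), and 0.14 higher without Btnl2-KO colon replicate 2. The interaction of genotype with organ was 0.79 ± 0.28 for Hes1 (SE; edgeR FDR 0.31) and 0.46 without that library. No member passed the interaction test, in which 0.0129% of genes were called higher and 0.00644% lower, and 12.9% had an unadjusted p below 0.05. Atoh1 was at 0.04 ± 0.18 in small intestine and -0.01 ± 0.16 in colon (SE), and the other members also missed the threshold in both organs.

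In duodenal and jejunal IECs, the largest genotype differences involved libraries whose markers go against their labels. In ileal IECs the largest log2 fold changes were 0.70 for Neurog3 and 0.62 for Jag1, neither called, beside -0.17 for Atoh1 and for Spdef. The library labelled duodenal Btnl2-KO replicate 1 had 34.6 CPM of Atoh1, 20.2 CPM of Spdef, and 6.47 CPM of Gfi1, beside 11.04, 8.85, and 2.36 CPM in the other duodenal Btnl2-KO library. The library labelled ileal Btnl2-KO replicate 1 had 7.67 CPM of Atoh1 and 7.38 CPM of Spdef, beside 29.9 and 39.3 CPM and 17.8 and 24.6 CPM in the other 2 ileal Btnl2-KO libraries. These values were near those of WT ileum and WT duodenum, respectively. With all libraries, duodenal Spdef stood 1.06 ± 0.39 above WT (SE; edgeR FDR 0.99997) and Atoh1 1.03 ± 0.46 (SE; edgeR FDR 0.99997). In 1 fit of all IEC libraries other than the 3, the log2 fold changes were 0.32 and -0.04, respectively. These 2 values rest on 1 duodenal Btnl2-KO library, so that group shows no spread. Ileal Hes1, with 33.7, 41.2, and 44.2 CPM in Btnl2-KO and 49.6 and 55.8 CPM in WT libraries, did not overlap and had a log2 fold change of -0.40 ± 0.16 (SE; edgeR FDR 0.90), and of -0.31 in that fit. With groups of only 3 and 2 libraries, such a lack of overlap says little, and the share of all genes without overlap was not counted. The library labelled jejunal Btnl2-KO replicate 2 had 101 CPM of Hes1, beside 35.8 to 49.4 CPM in the other jejunal libraries, and jejunal Hes1 went from 0.57 with it to 0.07 in that fit.

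In γδ IELs, the lowest p among the members was that of Hes1 in the ileum. Hes1 had 3.46, 3.45, and 3.59 CPM in Btnl2-KO and 3.64, 11.9, 13.7, and 7.29 CPM in WT ileal libraries. The groups did not overlap, though by a narrow margin, and the log2 fold change was -1.36 ± 0.45 (SE; edgeR FDR 0.47). Notch1 had 66.2, 87.0, and 84.3 CPM in Btnl2-KO and 70.8, 57.3, 57.0, and 47.9 CPM in WT ileal γδ IELs, which overlapped, with a log2 fold change of 0.47 ± 0.20 (SE; edgeR FDR 0.55). Atoh1 at -1.21 and Neurog3 at -1.80 both had an edgeR FDR of 0.57. The pan-epithelial sum was 1014 to 3635 CPM in the Btnl2-KO and 3461 to 9033 CPM in the WT ileal libraries. With that level as a covariate, the ileal log2 fold changes were -0.74 for Hes1, 0.24 for Notch1, -0.11 for Atoh1, and -0.95 for Neurog3. In jejunal and duodenal γδ IELs no member had an unadjusted p below 0.05. Neurog3 had 0 counts in 2 jejunal and 1 ileal Btnl2-KO library, and 3 counts, the upper limit that 0 allows, would be 0.13 to 0.19 CPM there. Such limits cover counting error only. The interaction of genotype with segment called 0 of 9 members in edgeR and DESeq2, beside 0.0% of genes in either direction, with 5.73% of genes at an unadjusted p below 0.05. No member had such a p in edgeR and 1 had in DESeq2.

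**Figure D5:**
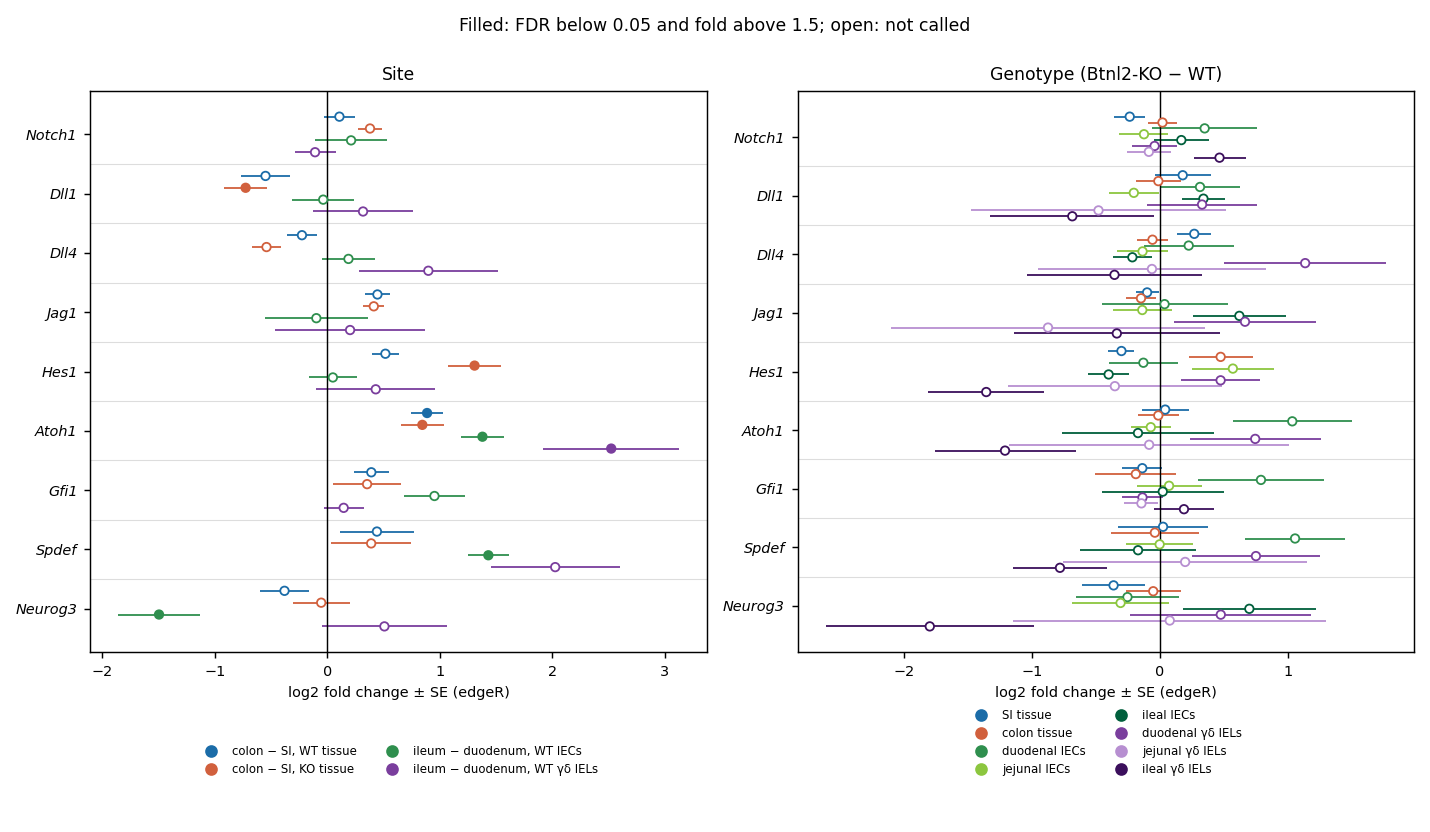
Log2 fold changes of the 9 genes with error bars of 1 SE, on the left for colon against small intestine in each genotype and for ileum against duodenum in WT IECs and γδ IELs, and on the right for the 8 comparisons of Btnl2-KO with WT. Filled points passed both thresholds and open points did not, and no point on the right is filled.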

How the data were processed

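The authors mapped the reads of the bulk libraries with ArrayStudio to a customized mouse genome, for which the labels name GRCm38, and estimated gene levels with RSEM. The deposited values are expected counts, neither normalized nor rounded, and 1 column of the γδ IEL table, which matches none of the samples, was dropped. Counts were rounded to whole numbers. A gene entered a fit with 10 or more counts in a number of libraries equal to the smallest group, and was tested with edgeR 4.0.16 in R 4.3.3 (quasi-likelihood test, TMM). A call required an FDR (Benjamini-Hochberg) under 0.05 together with a change of over 1.5-fold, the study's thresholds. Genotype and colon fits used the 2 groups compared, and segment fits used the 3 groups of 1 genotype in a table. Standard errors were derived from the log2 fold change and the F statistic. All 9 members passed the count filter in all 19 comparisons. Alternatives were DESeq2 1.42.0, RLE size factors, no count filter, no fold minimum, all libraries of a table in 1 fit, the pan-epithelial level as a covariate in γδ IELs, and, in IECs and γδ IELs, each library of the compared groups left out in turn. In tissue, only WT small intestine replicate 5, Btnl2-KO small intestine replicate 1, and Btnl2-KO colon replicate 2 were left out, which was not planned beforehand. Replicates are taken as biological, as in the study. Groups came from the sample labels. Identifiers without a gene symbol, which took 0.25 to 9.24% of a library's counts, were kept. Gene positions are RefSeq spans on GRCm38, and exon lengths and strands are from the GENCODE M21 annotation. The members and gene lists were chosen with earlier results of these data known. Named genes are the members, Btnl2, segment markers as checks of labels, the 3 genes most like a member, and, per list and direction, at most 3 called genes, ranked by size of change. The 6 single-cell libraries of the series were not used. Scripts were tested on simulated data.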

Additional observations from a re-analysis of the deposited data

Results flagged for a closer look

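Dixon's ratio of gap to range was tested in 72 sets, each of 1 member in 1 group of 4 to 7 libraries. A library stood apart from its group in 8 of them, in a test in which chance flags about 1 in 20. The sets share libraries, so they are not independent. Hes1 was at 165 CPM in Btnl2-KO colon replicate 2, beside 49.2 to 72.4 CPM in the others, and Notch1 was at 38.6 CPM in that library, beside 55.2 to 67.8 CPM. WT small intestine replicate 1 had the lowest Notch1, 32.2 CPM beside 48.0 to 62.8 CPM, and the lowest Jag1, 14.8 CPM beside 19.7 to 23.8 CPM.

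In γδ IELs, Atoh1 was at 3.75 CPM in WT ileal replicate 1, beside 17.9 to 19.995 CPM, and Hes1 at 3.46 CPM in WT duodenal replicate 4, beside 7.46 to 8.35 CPM. Jag1 was at 2.18 CPM in jejunal Btnl2-KO replicate 4, beside 0 to 0.18 CPM. Neurog3 was at 0.41 CPM in WT colon replicate 3, beside 0.78 to 0.96 CPM.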

How the results depend on the processing

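No gene changed direction between a called value and an alternative. Of 1908 values of single members under alternatives, 123 of members not called changed sign, 27 calls were lost, and 17 were gained; the cause was not tested. In tissue, Atoh1 in both genotypes, and Hes1 and Dll1 in Btnl2-KO mice, stayed called under every alternative run. These alternatives left out only selected tissue libraries, not each in turn. Without the fold minimum, WT colon against small intestine called 3 members higher, and Btnl2-KO colon called 4 higher and 2 lower. Jejunal against duodenal γδ IELs called 1 higher without it. The 2 organs differ broadly: before adjustment, edgeR's p was under 0.05 for 53.2% (WT) and 56.7% (Btnl2-KO) of genes tested. The colon counts without a fold minimum therefore need not lie above the background. Shares of all genes called are not given for the alternatives, so none of these member counts shows an excess. Leaving out Btnl2-KO small intestine replicate 1 called 2 members lower in Btnl2-KO colon, Dll4 being added (range 1 to 2 over this library and Btnl2-KO colon replicate 2, each left out alone). With all IEC libraries in 1 fit, ileum against duodenum called 0 members either way, but without the 3 libraries whose markers go against their labels, chosen after seeing the data, it called 2 higher and 1 lower, and jejunum against duodenum 2 higher. DESeq2 also called 2 higher in jejunal IECs. Leaving out any 1 duodenal or ileal WT IEC library called 0 lower between ileum and duodenum (range 0 to 0; Neurog3 FDR 0.061 to 0.32). In γδ IELs, ileum against duodenum called 2 higher by DESeq2 and with the epithelial covariate and 0 with all libraries in 1 fit (range over libraries left out 0 to 2). Ileum against jejunum called 0 higher with all libraries in 1 fit and with the covariate (range 0 to 2), and jejunum against duodenum called 1 higher with the covariate (range 0 to 1; Gfi1 without WT duodenal replicate 3). No paired analysis was possible because the labels number no replicates and the numbers used here only follow the order of the samples. Levels near 1 CPM, such as Neurog3 in tissue and γδ IELs, rest on few counts, and groups of 2 or 3 libraries limit the IEC comparisons.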

Other observations

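For each member, the genes with the most similar profile were sought by Pearson's r of log2(CPM + 1), first over the 16 group means, whose points share fraction and table, and then over the 27 tissue libraries with group means removed, which share library composition. Over the 16 group means, Spdef was most like Foxa3 (r = 0.98), Atoh1, and Tpsg1. Atoh1 was most like Capn8 (r = 0.99), Bcas1, and Rab15, and Hes1 like Esrp1 (r = 0.99), Sema5a, and Vkorc1l1. Gfi1, high in γδ IELs, was most like Hdhd5 (r = 0.997), Rgs1, and Nfkbid, and Notch1 was most like Smg6, at a lower r of 0.84. Within tissue groups, Spdef was most like Tpsg1 (r = 0.95), Dll1 like Vdr (r = 0.91), Hes1 like Frg1 (r = 0.91), Atoh1 like Kit (r = 0.89), Dll4 like Rnf180 (r = 0.84), and Jag1 like Fzd5 (r = 0.83). Gfi1 was most like Myrip (r = 0.78) with the Paneth cell gene Ang4 at 0.77, and Neurog3 was most like Ccl22 (r = 0.76) with the enteroendocrine factor gene Rfx6 at 0.71. These values describe the libraries and carry no test.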
